A study of Mus musculus with 8 samples.

Results

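The genes described here are 5 members of the plasminogen activation system and of the serpin family, taken by symbol from the 56748 genes of the deposited count table. They are Plat, which encodes tissue-type plasminogen activator, Plau, which encodes urokinase, Plaur, the receptor of urokinase, and the serpins Serpine2 and Serpinf1. RNA was measured in primary cardiac fibroblasts of wild-type C57BL/6J mice aged 1 day, grown in serum-containing medium after a short plating step on plastic. There were 4 untreated cultures and 4 cultures given recombinant transforming growth factor beta 1 (TGF-β1) at 10 ng/mL for 48 h, and per the series design the replicates came from different litters. An MRN complex inhibitor appears in the treatment protocol, but no library used here is labelled with it. The source is labelled whole heart, and the cells were not sorted.

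Plasminogen is a circulating zymogen that Plat and Plau cleave to plasmin, a protease that dissolves fibrin, cuts matrix glycoproteins and activates several latent metalloproteinases and growth factors. Plat cleaves plasminogen mainly at fibrin surfaces, whereas Plau is held at the cell surface by Plaur, a receptor anchored in the membrane by a lipid tail. Serpine2, also called protease nexin-1 or glia-derived nexin, inhibits thrombin, Plau, Plat and plasmin, and is secreted by fibroblasts. Serpinf1, pigment epithelium-derived factor (PEDF), has the serpin fold but is known as a non-inhibitory serpin with anti-angiogenic activity, so it is no inhibitor of the activators.

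Libraries held 14340740 to 17176898 counts. Untreated replicate 1 stood apart in ribosomal RNA, which took 0.0322% of its counts against 1.05% to 2.47% in the remaining 7. The 9 fibroblast markers examined were all above the count filter. They summed to 18840 to 20590 CPM (normalised counts, scaled to a common library size) in untreated and 22290 to 23680 CPM in treated libraries. Col1a1 was the largest part of these sums, at means of 6974 CPM in untreated and 10700 CPM in treated libraries. Of the 9 markers, 3 were called higher and 6 lower, against 17.6% and 18.5% of all genes tested. Their median log2 fold change was −0.52, against 0.0068 over all genes tested.

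Both activator transcripts fell to less than 50% of their untreated level under TGF-β1, and the receptor and both serpins rose by 26.2% to 53.1%. All 5 members passed the count filter and all 5 were called, 3 higher and 2 lower (quasi-likelihood test of edgeR, called at an adjusted p under 0.05 over 13960 genes). The treatment was broad, with 36.0% of all tested genes called, 17.6% of the tested genes higher and 18.5% lower. In 4 of the 5 members the CPM values of the groups did not overlap, against 33.9% of all genes tested. A fall of at least 2-fold was called in 4.63% of tested genes, and both activators were among them. In cultures of mixed cells, fewer cells of a type and less RNA per cell cannot be told apart.

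Plat (ENSMUSG00000031538, GRCm39 chromosome 8, 23247743 to 23272860, plus strand) had 149.6, 152.3, 152.3 and 144.1 CPM in untreated replicates 1 to 4. In the treated replicates it had 71.95, 65.54, 66.22 and 67.16 CPM. Every treated library lay far below every untreated one, and the spread within either group was under 5% of its mean. The mean went from 149.6 ± 3.88 to 67.7 ± 2.90 CPM (SD, n = 4 and 4). The corresponding log2 fold change was −1.14 with a standard error (SE) of 0.04 (edgeR adjusted p = 2.72e-15), and the level fell by 54.7%. By p-value Plat was number 41 of the 13960 genes tested.

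Plau (ENSMUSG00000021822, chromosome 14, 20886728 to 20893453, plus strand) was measured at 16.33, 14.92, 20.28 and 20.22 CPM in the untreated replicates. The treated replicates gave 7.265, 8.088, 8.093 and 8.947 CPM. The untreated values were the more scattered, with replicates 3 and 4 above replicates 1 and 2, but the lowest of them still exceeded the highest treated value. The log2 fold change, −1.15 with an SE of 0.11 (edgeR adjusted p = 3.05e-08), was close in size to that of Plat with a wider error. Later values after ± are SEs where they follow a log2 fold change. Plau rested on 103 to 339 counts per library, where counting alone gives a coefficient of variation of 6.0% at the untreated mean, and the observed value was 15.2%. In the treated libraries the observed variation of 8.48% was no larger than the 9.08% from counting. In the GENCODE M39 annotation 15.1% of the exonic bases of Plau lie under exons of the antisense gene Gm63115. That gene is not among those counted by the authors, and whether reads were counted by strand is not stated in these sources.

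Of all genes tested, 3.78% had a lower log2 fold change than Plat and 3.76% a lower one than Plau. Markers of other cell types were examined beside these falls. For comparison, 17.6% of all tested genes were called higher and 18.5% lower. Cardiomyocyte markers fell in 11 of 12 cases, from a summed 794.7 to 865.8 CPM in untreated to 430.9 to 512.6 CPM in treated libraries. Tnnt2 made up most of the cardiomyocyte sums, at means of 518.4 CPM in untreated and 297.5 CPM in treated libraries. Of 8 epicardial and mesothelial markers, 3 fell and 1 rose, with sums of 1096 to 1158 CPM and 871.9 to 905.4 CPM. Endothelial cells are a known source of Plat. Their markers rose in 2 and fell in 2 of 9 tested cases, and the sums overlapped, at 85.03 to 86.19 CPM in untreated and 79.2 to 87.1 CPM in treated libraries. Macrophage markers rose in 1 and fell in 3 of 10 tested cases, with overlapping sums of 198.7 to 238.3 CPM and 174.6 to 211.7 CPM. Lyz2 made up most of these sums, at means of 168.8 CPM in untreated and 149.0 CPM in treated libraries. Mural markers rose in 3 and fell in 1 of 5 tested cases (sums of 1059 to 1094 CPM and 1161 to 1259 CPM). Pdgfrb made up most of the mural sums, at means of 1006 CPM in untreated and 1121 CPM in treated libraries. Neither of the 2 tested Schwann and glial markers was called (sums under 3 CPM). No marker of these 6 lists was at 0 in all libraries, and their part in the falls of Plat and Plau was not tested.

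Plaur (ENSMUSG00000046223, chromosome 7, 24161909 to 24175393, plus strand) moved the other way from its ligand. Its values were 11.62, 9.816, 9.973 and 10.14 CPM in the untreated and 13.33, 11.34, 13.44 and 14.26 CPM in the treated replicates. The groups overlapped, because untreated replicate 1 lay above treated replicate 2. The log2 fold change was small, 0.34 ± 0.10 (edgeR adjusted p = 0.013). Counting alone gives a coefficient of variation of 7.9% at the 148 to 175 counts of the untreated libraries. This is close to the observed 8.02%, so that the depth limits the precision in that group. In the treated libraries the observed variation of 9.47% was above the 7.15% from counting. The call of Plaur was lost when library totals replaced the TMM factors (0.25 ± 0.10, edgeR adjusted p = 0.0634). Without untreated replicate 1 the groups no longer overlapped and the log2 fold change was 0.39 ± 0.11 (edgeR adjusted p = 0.0077).

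Serpine2 (ENSMUSG00000026249, chromosome 1, 79771914 to 79838897, minus strand) had 258.4, 254.3, 257.1 and 244.1 CPM without treatment. With TGF-β1 it had 362.3, 343.9, 314 and 324.3 CPM. The untreated values were tightly grouped and the treated ones were all higher, with more spread among them (2.57% and 6.37% as coefficients of variation). The rise was 32.6%, at a log2 fold change of 0.41 ± 0.04 (edgeR adjusted p = 7.16e-08).

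Serpinf1 (ENSMUSG00000000753, chromosome 11, 75300595 to 75313527, minus strand) was at 155, 173.4, 186.8 and 173.1 CPM in untreated replicates 1 to 4. In the treated replicates it was at 252.9, 249.8, 277.1 and 273.8 CPM. All treated libraries were higher, and the lowest value belonged to untreated replicate 1, the library with little ribosomal RNA. The rise was 53.1%, at a log2 fold change of 0.61 ± 0.05 (edgeR adjusted p = 1.19e-09), and at 0.56 ± 0.05 without that library. Exons of Smyd4 and Gm35337 on the opposite strand cover 7.09% of the exonic bases of Serpinf1. Smyd4 itself was not called (log2 fold change 0.04 ± 0.12, edgeR adjusted p = 0.843), and Gm35337 is not among the genes counted.

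**Figure D1:**
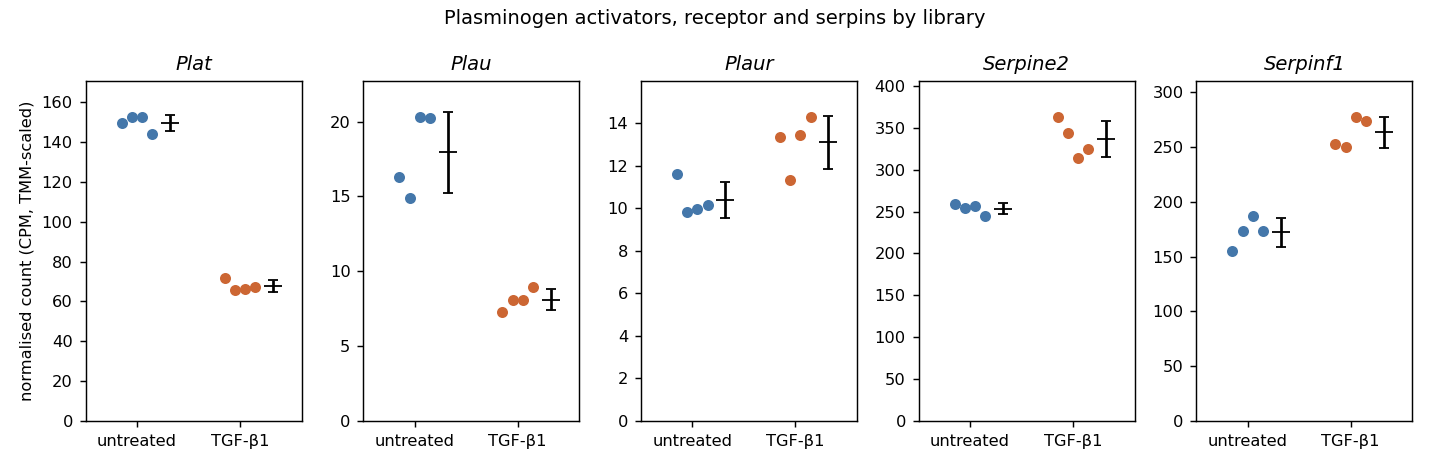
Normalised counts (CPM, scaled with TMM factors) of the 5 members in each library, with untreated libraries in blue and TGF-β1 libraries in orange, replicates 1 to 4 from left to right, and the mean ± SD of 4 beside them. Plat and Plau are lower in every treated library, Serpine2 and Serpinf1 are higher in every treated library, and the groups of Plaur overlap at 11.62 and 11.34 CPM.

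The RefSeq table used here, whose build is GRCm38.p6, holds a promoter for the 3 members that rose and none for Plat or Plau. The 3 sequences are shown so that candidate sites for factors of TGF-β signalling can be read in place. Each line gives the 250 bases before the start site, 5′ to 3′ on the strand of the gene. Capitals mark matches on either strand to TGANTCA, the site of AP-1 factors, and to CAGAC, a short site bound by SMAD3 and SMAD4.
Plaur (chr7:24462233-24462482, plus strand): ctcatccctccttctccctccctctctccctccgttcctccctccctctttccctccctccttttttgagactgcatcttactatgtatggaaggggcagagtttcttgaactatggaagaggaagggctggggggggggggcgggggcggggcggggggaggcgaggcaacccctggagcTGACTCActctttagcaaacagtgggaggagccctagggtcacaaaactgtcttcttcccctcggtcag
Serpine2 (chr1:79858666-79858915, minus strand): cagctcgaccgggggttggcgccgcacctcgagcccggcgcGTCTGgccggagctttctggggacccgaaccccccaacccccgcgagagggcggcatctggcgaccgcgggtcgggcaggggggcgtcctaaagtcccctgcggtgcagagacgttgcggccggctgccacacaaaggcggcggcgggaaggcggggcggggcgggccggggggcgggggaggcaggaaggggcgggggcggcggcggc
Serpinf1 (chr11:75422624-75422873, minus strand): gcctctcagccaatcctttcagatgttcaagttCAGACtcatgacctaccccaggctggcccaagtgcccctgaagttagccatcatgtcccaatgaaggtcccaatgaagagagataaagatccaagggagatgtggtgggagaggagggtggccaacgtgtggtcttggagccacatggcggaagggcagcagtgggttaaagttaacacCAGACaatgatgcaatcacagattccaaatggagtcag
The Plaur promoter held the only TGANTCA match among them, starting 69 bases before the start site, and 6.75% of the 32851 promoters in the table hold one in the same window. Serpinf1 had 2 CAGAC matches, starting 217 and 38 bases before the start site, and Serpine2 had 1, on the opposite strand, 209 bases before it. Such a short word is common: 42.2% of all promoters hold CAGAC. The match nearest to the Serpinf1 start also reads CAGACA, which 17.1% of promoters hold. The Serpine2 window was 78.8% G and C, against a median of 52.4% over all promoters, that of Plaur 59.6% and that of Serpinf1 51.6%. These matches describe the letters in the window and were not tested for binding.

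Levels of different genes were compared per gene length, with the FPKM values of the authors. In untreated libraries the order was Serpinf1 (71.8 ± 5.36 FPKM), Serpine2 (30.1 ± 0.71), Plat (23.6 ± 0.56), Plau (7.46 ± 1.14) and Plaur (3.90 ± 0.31; SD, n = 4). No pair of neighbours in this order overlapped between libraries. With TGF-β1 the order was Serpinf1 (109.8 ± 5.70 FPKM), Serpine2 (39.9 ± 2.59), Plat (10.7 ± 0.47), Plaur (4.92 ± 0.46) and Plau (3.37 ± 0.28; SD, n = 4). Receptor and ligand had thus changed places. Plau ran from 6.20 to 8.43 FPKM in untreated libraries, above the 3.69 to 4.37 FPKM of Plaur, and from 3.02 to 3.71 FPKM in treated ones, below the 4.27 to 5.35 FPKM of Plaur. Plat moved from a level above that of 85.2% of tested genes to above 69.2%, and Serpinf1 from above 95.6% to above 97.0%.

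Ratios within a library do not depend on how libraries are scaled, and they are given as a description. The ratio of Plat to Serpine2 was 0.769, 0.796, 0.787 and 0.784 in untreated replicates 1 to 4 and 0.264, 0.253, 0.28 and 0.275 in the treated ones. Activator transcript per inhibitor transcript was thus 2.93-fold lower, with little spread in either group. The ratio of Plau to Plaur was 1.55 to 2.25 in untreated and 0.603 to 0.789 in treated libraries, or 2.77-fold lower. The ratio of Plat to Plau stayed in the same range, at 2.7 to 3.87 and 2.85 to 3.76. The ratio of Serpine2 to Serpinf1 was 0.392 to 0.474 and 0.323 to 0.408, and these ranges overlapped.

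**Figure D2:**
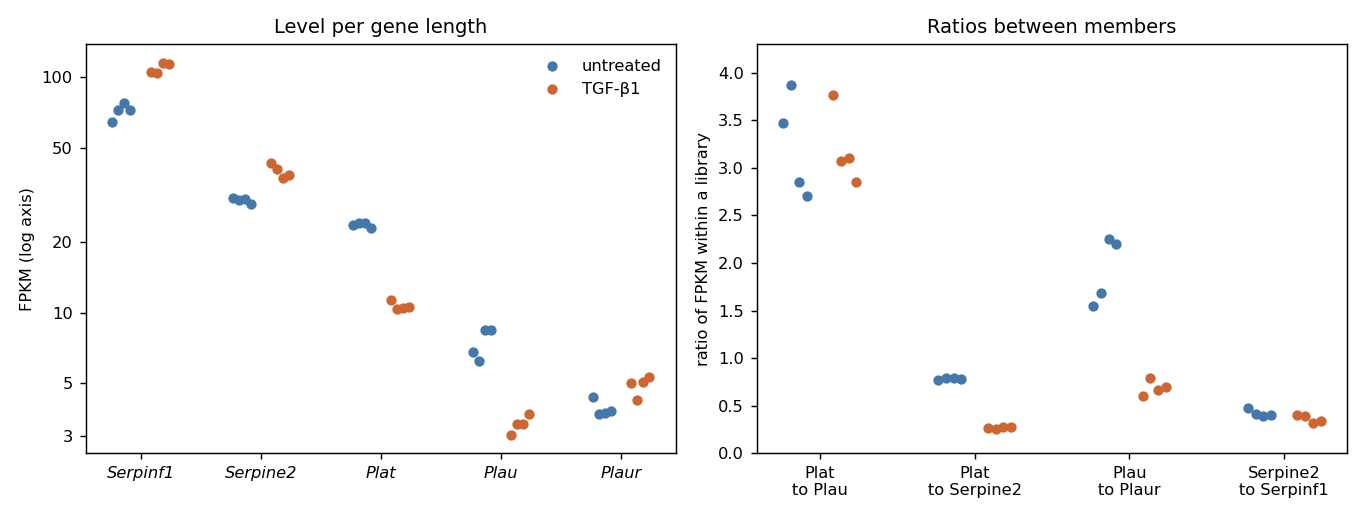
Left, FPKM of the 5 members in each library on a log axis; right, ratios of FPKM within each library, with untreated libraries in blue and TGF-β1 libraries in orange. Plau lies above Plaur in the untreated libraries and below it in the treated ones, and the ratio of Plat to Serpine2 goes from about 0.784 to about 0.268.

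The transcript of the activators' substrate was nearly absent, and plasminogen protein, which serum can supply, was not measured. Plg, the plasminogen gene, expressed chiefly in the liver, had 3 counts in total over the 8 libraries. Of 10 genes for plasminogen and for proteases that act on the activators or on plasmin, 3 passed the filter and St14, which encodes the membrane protease matriptase, rose from 2.96 ± 0.59 to 4.65 ± 0.73 CPM (SD, n = 4 and 4; log2 fold change 0.66 ± 0.19, edgeR adjusted p = 0.00822). Ctsb, the gene of cathepsin B, was at 746.4 and 718.7 CPM and was not called. The median log2 fold change of the 3 was −0.05, against 0.0068 over all genes tested.

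Receptors, cofactors and uptake receptors were called in 11 of 18 tested cases, 9 higher and 2 lower, against 36.0% of all genes tested. Their median log2 fold change was 0.13, against 0.0068 over all genes tested. Lrp1, the endocytic receptor that clears complexes of activators with serpins, was at 2234 ± 164.9 and 2987 ± 146.8 CPM without and with treatment (SD, n = 4 and 4), a rise by 0.42 ± 0.04 on the log2 scale (edgeR adjusted p = 8.48e-08). The integrin subunit genes Itga5 and Itgb5 rose by 0.53 ± 0.04 and 0.27 ± 0.03. The 2 that fell were Lrp2, the gene of megalin, at −0.38 ± 0.08, and Itgb3 at −0.20 ± 0.07. The call of Itgb3 was lost without untreated replicate 1 or 3, or without treated replicate 2, 3 or 4. It was also lost with no count filter, with DESeq2 and with limma on log2(FPKM + 1). Among plasminogen binding proteins Anxa2 rose by 0.18 ± 0.03, and its partner S100a10 (0.02 ± 0.04) and the receptor gene Plgrkt (−0.07 ± 0.07) were not called. Vtn, which encodes vitronectin, a matrix ligand of Plaur, had 0 counts in all libraries, which allows up to 0.175 to 0.209 CPM per library at 3 counts.

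All 11 tested genes of proteins that plasmin or the activators cut were called, against 36.0% of all genes tested. Of the 11, 6 were higher and 5 lower, with a median of 0.21. Pdgfc, whose product Plat is known to activate, went from 13.6 ± 0.87 to 30.7 ± 1.62 CPM (SD, n = 4 and 4; log2 fold change 1.17 ± 0.08, edgeR adjusted p = 2.64e-11). Ltbp1, a latent TGF-β binding protein of the matrix, and Thbs1, thrombospondin 1, rose by 1.61 ± 0.05 and 0.65 ± 0.03. The latent metalloproteinase genes Mmp3 and Mmp12 were at −2.46 ± 0.18 and −2.30 ± 0.21, from 8.65 and 6.71 CPM. Igfbp5, which encodes an insulin-like growth factor binding protein, was at −0.94 ± 0.11. Mmp9 and Mmp13 did not pass the filter, with at most 2 and 7 counts in a library.

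Thrombin is the other main target of Serpine2. Of 8 tested genes of the thrombin and tissue factor system, 2 rose and 5 fell, with a median of −0.16. Over all genes tested, 17.6% were called higher and 18.5% lower. F2r, the protease-activated receptor that thrombin cleaves, was at 1107 ± 38.9 and 1572 ± 35.6 CPM without and with treatment (SD, n = 4 and 4), a rise by 0.51 ± 0.03 on the log2 scale (edgeR adjusted p = 5.64e-11). Tfpi2, a Kunitz-type inhibitor of plasmin and other serine proteases, rose by 0.75 ± 0.12. Thbd, thrombomodulin, and Procr, the endothelial protein C receptor, fell by 0.54 on the log2 scale (SE 0.06) and by 0.46 (SE 0.10). F13a1, a transglutaminase subunit that crosslinks fibrin, was at −2.43 ± 0.50 from only 1.30 CPM. Macrophages also express F13a1. Of the 10 tested macrophage markers 3 fell (Mrc1, Cd14 and Lyz2), Adgre1 rose and 6 were not called, with sums that overlapped between the groups as given above, and their part was not tested.

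Serpins other than the members numbered 61 in the table, pseudogenes left out, and 24 of them had no count in any library. Of 18 tested, 2 rose and 9 fell, against 17.6% and 18.5% of all genes tested. The median of the 18 was −0.36, so the rises of Serpine2 and Serpinf1 were not shared by most of the tested serpins. Serpinh1, the collagen chaperone HSP47, rose by 0.24 ± 0.03 from 2086 ± 36.7 CPM (SD, n = 4). Serping1, which inhibits C1 proteases and kallikrein, changed by −1.20 ± 0.04. Other inhibitors of the system were at the limit of detection. Serpinb2, plasminogen activator inhibitor 2, had 0 counts in all libraries, and Serpina5, the protein C inhibitor, had at most 4 in a library. Serpinf2, which encodes the plasmin inhibitor α2-antiplasmin, lies 9030 bases from Serpinf1 on chromosome 11 (75322558 to 75330417) and had at most 6 counts in a library.

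Of 5 genes for proteins reported to bind the product of Serpinf1, 4 were tested, 3 rose and none fell, with a median of 0.15. Over all genes tested, 17.6% were called higher. Plxdc2, a transmembrane receptor, rose by 0.52 ± 0.04 (edgeR adjusted p = 6.55e-10). Pnpla2, a lipase, and Rpsa, a ribosomal protein and laminin receptor, rose by 0.19 ± 0.06 and 0.11 ± 0.04. Both calls were lost with library totals (edgeR adjusted p = 0.168 and 0.512) and without treated replicate 2 (0.0576 and 0.0504, edgeR adjusted p). Without treated replicate 3 the adjusted p of Pnpla2 was 0.0602, and without untreated replicate 1 that of Rpsa was 0.0752 (edgeR). The call of Rpsa was also lost with limma on log2(FPKM + 1) and on log2(FPKM + 0.1) (limma adjusted p = 0.0596 and 0.0594). Exons of other genes cover 22.03% of the exonic bases of Pnpla2 and 24.2% of those of Rpsa, so their counts are uncertain.

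**Figure D3:**
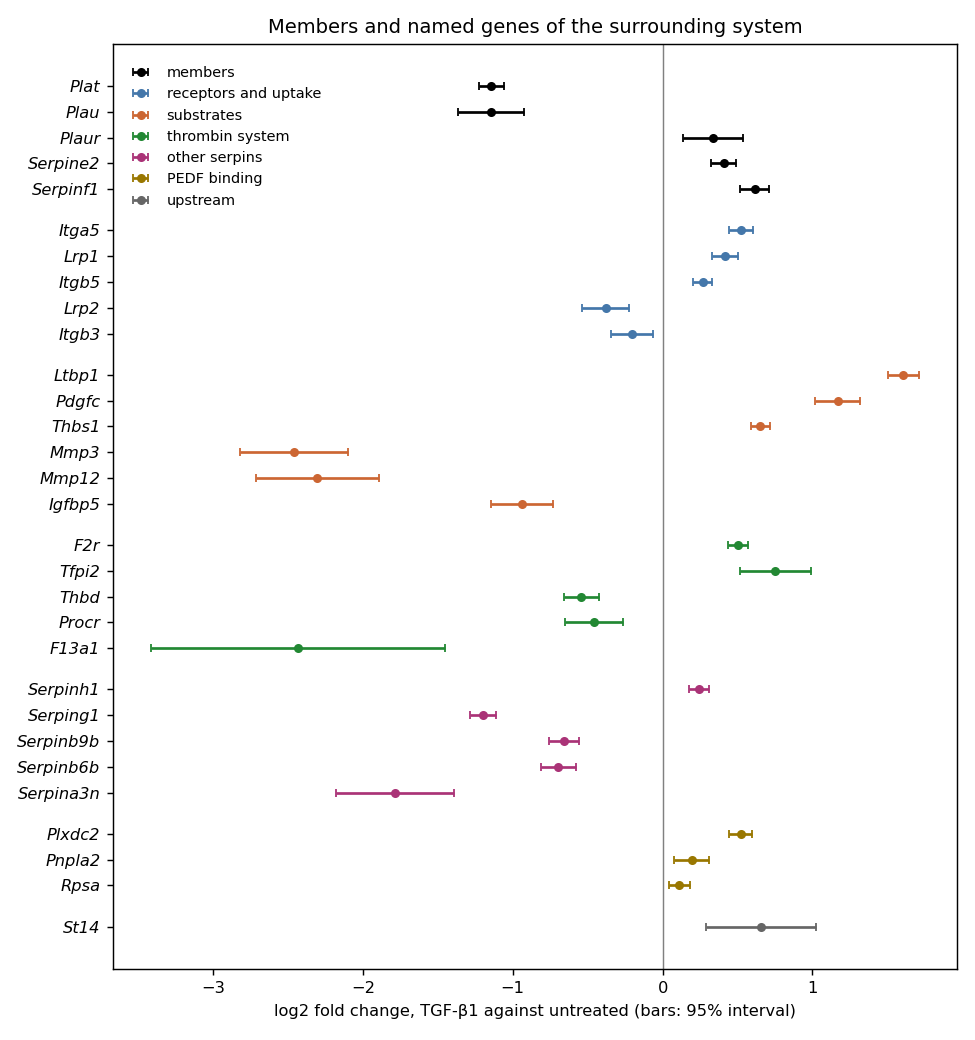
Log2 fold changes (TGF-β1 against untreated, dots) with bars of the 95% interval for the 5 members and for named genes of the surrounding system, coloured by list. The activators lie near −1.14, the receptor and the 2 serpin members lie between 0.34 and 0.61, and the substrates reach from −2.46 to 1.61.

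The genes most like each member in pattern were taken by the smallest root mean square difference of log2 CPM over the 8 libraries, each gene set to its own untreated mean, among 10200 candidates of at least 5 CPM. For Plat these were Clca3a1, Col6a2 and Hsd11b1, with differences of 0.031, 0.034 and 0.044. For Plau they were Dck, Adamtsl4 and Selenop, at 0.10, 0.11 and 0.12. For Plaur they were Ptar1, Akap9 and Ell2, at 0.038, 0.047 and 0.056. For Serpine2 they were Slc6a8, Rhbdd1 and Stc2, at 0.041, 0.043 and 0.045. For Serpinf1 they were Parm1, Prdx6 and Ccn1, at 0.049, 0.053 and 0.061. Plau, the member with the largest spread between untreated libraries, had the most distant matches.

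**Figure D4:**
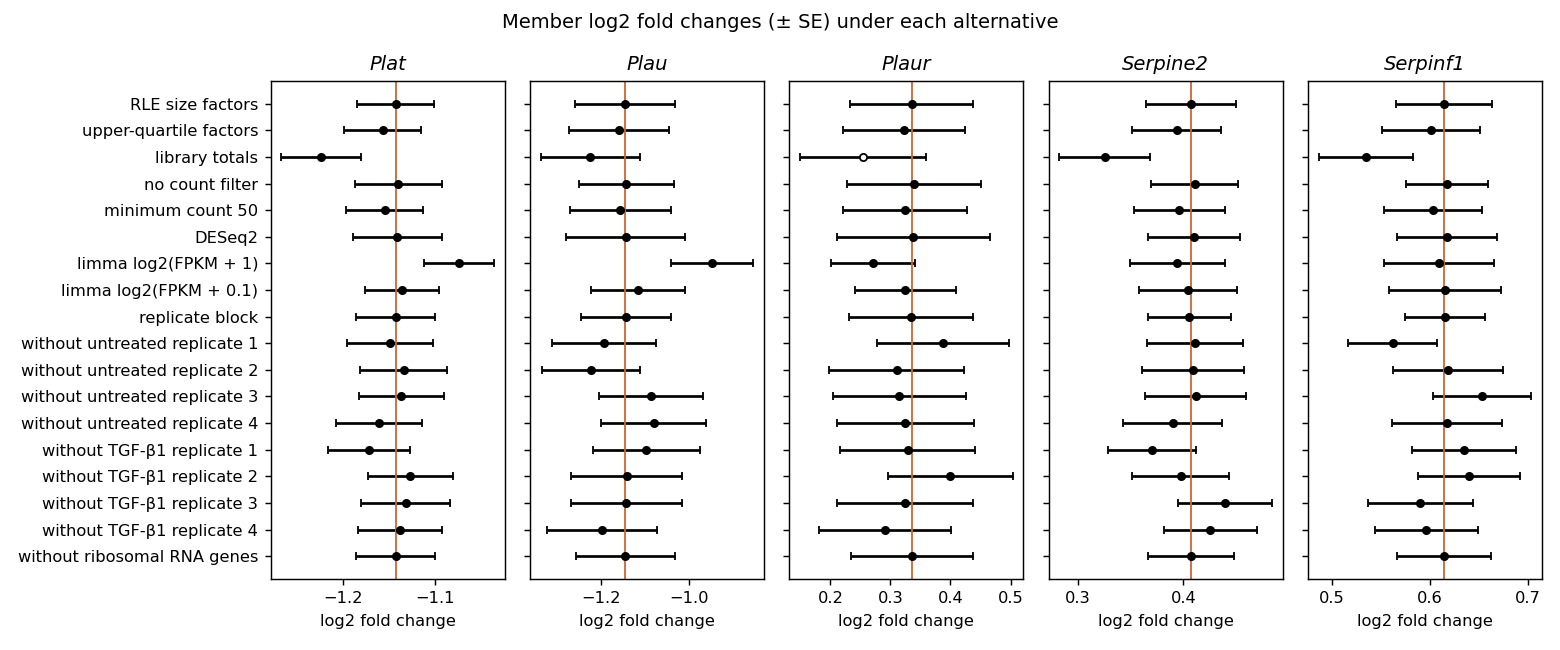
Log2 fold changes (± SE) of the 5 members under each of 18 alternatives, with the reported value as an orange line; filled dots have an adjusted p under 0.05. Only the value of Plaur with library totals (0.25) is open, and no member changes direction.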

How the data were processed

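Read counts were deposited by the authors as whole numbers, not normalized, for 56748 genes in 8 libraries. The deposited FPKM values were made by the authors and follow from count and gene length with a library denominator of 0.971 to 1.068 times the library total. GRCm38, with HISAT2, featureCounts, Subread and CASAVA, is named in the submitters' processing notes, and mm39 in the series design. File coordinates overlap the same coding gene in GRCm39 for 99.9% and in GRCm38 for 16.0%, and are read as GRCm39.

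Genes passing filterByExpr (minimum count 10, total 15) numbered 13960. TMM factors were applied, and the two-sided quasi-likelihood test of edgeR was run with group as the single model term (edgeR 4.0.16, limma 3.58.1, DESeq2 1.42.0, R 4.3.3). Standard errors were derived from the log2 fold change and the F statistic. CPM use the TMM-scaled library totals. The test was first run on simulated data. The limits given for counts of 0 cover counting error only, whereas the 95% intervals of log2 fold changes carry the spread between replicates.

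The members, lists and naming rule were chosen with earlier results of these data known. The rule names up to 3 called genes of each list in each direction by smallest p (4 for serpins), and the 3 genes most like each member; other members of lists are named for their role, chosen after their values were seen. A gene that the rule names is not reported here. Same-numbered libraries of the groups did not deviate together (correlations −0.17, −0.13, 0.0095 and 0.10 over 5725 genes), so no block was used. Correlations of differently numbered libraries ran from −0.21 to 0.24. Squared differences between library pairs of a group were, at the median over genes, 2.14 to 3.33 times those from sampling noise alone.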

Additional observations from a re-analysis of the deposited data

Results flagged for a closer look

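In all, 70 sets of 4 libraries were examined for a library far from the rest (members, their ratios and the named genes, by group). Of these sets 1 stood out. Chance alone flags about 1 set in 20, so 1 flag among 70 sets is not more than chance gives. Pnpla2, a lipase gene, was at 45.6 CPM in untreated replicate 3 and at 44.4 to 44.6 CPM in the other untreated libraries, a gap of 0.878 of the range of the group. The difference is small beside the spread of the treated libraries (51.3 ± 4.53 CPM, SD, n = 4).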

How the results depend on the processing

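The members were refitted under 18 alternatives each (scaling, filters, DESeq2, limma on log2 FPKM, the replicate block, each library left out, and, chosen after seeing the data, a fit without ribosomal RNA genes). Of these 90 values 89 kept direction and call, and the exception was Plaur with library totals (0.25, edgeR adjusted p = 0.0634). The log2 fold changes ran from −1.22 to −1.07 for Plat, −1.22 to −0.95 for Plau, 0.25 to 0.40 for Plaur, 0.33 to 0.44 for Serpine2 and 0.53 to 0.65 for Serpinf1. The largest adjusted p of Plaur with a library left out was 0.0481 (edgeR, without treated replicate 4). With library totals 1301 genes were called higher and 3673 lower, against 2451 and 2579 with TMM factors. In the list of plasminogen and upstream proteases the number called lower went from 0 to 1 with library totals and with the replicate block, and was 0 to 1 with a library left out. The replicate block changed no call of a member, and same-numbered libraries did not deviate together, as given above. In the list of receptors the number called lower went from 2 to 1 with no count filter, with DESeq2 and with limma on log2(FPKM + 1), and was 1 to 2 with a library left out. Genes called higher among the Serpinf1 binding proteins numbered 1 with library totals and 1 to 3 with a library left out, against 3. For the 26 other named genes, 451 of 467 values kept direction and call, and none reversed. The 16 lost calls concerned Itgb3, Pnpla2 and Rpsa.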

Other observations

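Several serpins of clade B lie close together on chromosome 13 and were tested, and they encode mostly intracellular protease inhibitors. Serpinb9b went from 94.1 ± 4.29 to 59.7 ± 3.83 CPM and Serpinb6b from 38.3 ± 0.30 to 23.6 ± 0.70 CPM (SD, n = 4 and 4), with log2 fold changes of −0.66 ± 0.05 and −0.70 ± 0.06 (± SE, edgeR adjusted p = 5.92e-10 and 2.85e-09). Serpinb1a was at −0.59 ± 0.12 and Serpinb6a at −0.13 ± 0.04 (edgeR adjusted p = 0.000324 and 0.0114). Serpinb9, whose product inhibits granzyme B, was not called (−0.07 ± 0.06, edgeR adjusted p = 0.403). On chromosome 12 Serpina3n, an acute-phase inhibitor gene, was at −1.78 ± 0.20 from 5.87 CPM. These families hold near-identical copies, and how reads shared between copies were counted is not stated in these sources, so single values are uncertain.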
